A study of Mus musculus with 8 samples.

Results

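B cells made up 1696 of the 36370 cells kept in 8 single-cell libraries of mouse inguinal white adipose tissue (iWAT). They were chosen by their transcripts. A member had a summed count of at least 4 unique molecular identifiers (UMIs, 1 per captured RNA molecule) of Cd79a, Cd79b and Ms4a1, and no UMI of Cd3d, Cd3e, Cd3g, Pdgfra, Pecam1 or C1qa, which mark T cells, stromal progenitors, endothelial cells and macrophages. The members were then split into 1469 cells with an Ighd UMI and 227 cells without one.

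Cd79a and Cd79b are the signalling chains of the B cell receptor, and Ms4a1 encodes CD20. A naive B cell makes the IgM and IgD heavy chains from the same primary transcript by alternative splicing, so Ighd marks cells that have not yet changed their antibody class. After activation, B cells can switch to IgG, IgA or IgE, lose IgD and become memory cells or antibody-secreting plasma cells. In adipose tissue, B cells are known as antibody producers and as partners of T cells in inflammation.

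The stromal vascular fraction of the fourth iWAT depot of C57BL/6 mice was sequenced with droplet 3′ chemistry in 8 libraries. In 4 of them the mice had eaten ad libitum (Ad-Lib replicates 1, 3, 5 and 7), and in the other 4 food had been given in a pair of windows each night (TAN replicates 2, 4, 6 and 8). The age in the labels is 8 weeks, but older male mice on regular chow are described in the study, and the age is therefore not certain. The study's methods state that the lymph nodes of the pads were excluded. The labels do not say how many mice went into a library. The study's methods name 4 Ad-Lib and 4 TAN mice for its single-cell comparison. All p-values measure the spread between these libraries.

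The libraries held 25320800 to 37140950 UMIs each, and between 17 and 439 B cells. Ad-Lib 1, 5 and 7 held only 21, 43 and 17 B cells. Ad-Lib 3 held 439 and stood apart from the other Ad-Lib libraries. TAN 2 held 81, and TAN 4, 6 and 8 held 394, 406 and 295. The median depth of a B cell was 3092 to 3823 UMIs in 7 libraries and 14789 in Ad-Lib 1. Only 2 barcodes of members were found in more than 1 library.

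The members carried B cell transcripts beyond those that chose them. Fcer2a, the low-affinity IgE receptor CD23 of follicular B cells, was detected in 71.0% of members and in 0.209% of 2866 T cells from the same libraries (at least 2 Cd3 UMIs and none of the other genes of the rule). Pax5, the transcription factor of B cell commitment, was detected in 63.4% of members and in 0.209% of T cells. Ighd, by which the members were split, was found in 86.6% of members and in 1.26% of T cells. Ebf1 was detected in 94.8% of members, but also in 52.7% of the cells that were neither members nor T cells, as stromal progenitors express it too.

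Transcripts of other lineages were present in the members, mostly at low levels. Trac, the T cell receptor constant region, was detected in 0.649%, the endothelial gene Cdh5 in 1.71% and the macrophage gene Lyz2 in 5.07%. Dcn, a fibroblast gene, was detected in 11.2% of B cells and 12.8% of T cells, and Fabp4, an adipocyte gene, in 31.5% and 34.8%. All 12 genes of the adipocyte list had a UMI in the members, with a summed level of 50.6 to 1858 CPM (the gene's UMIs relative to all UMIs of the summed cells) in Ad-Lib and 1128 to 1402 in TAN libraries. All 10 fibroblast genes and all 10 macrophage genes were also present. The fibroblast sum was 167 to 414 CPM in Ad-Lib and 161 to 669 CPM in TAN. The macrophage sum was 125 to 217 CPM and 107 to 355 CPM. In all other cells the adipocyte sum was 9815 to 20475 CPM. Scd1, a fatty acid desaturase on that list, differed from this pattern, with 23.3 to 439 CPM in B cells and 86.8 to 223 CPM in the other cells, and was higher in B cells in each library but Ad-Lib 1. Of the 6 plasmacytoid dendritic cell genes, 5 had a UMI and Klk1 was at 0. Their sum was 176 to 369 CPM in Ad-Lib and 217 to 301 CPM in TAN, against 589 to 804 CPM in the other cells. All 4 red cell genes had a UMI, with a sum of 11.7 to 214 CPM in Ad-Lib and 36.5 to 711 CPM in TAN. In the other cells the red cell sum was 675 to 4018 CPM.

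The exclusion of Pecam1 shaped the set of cells. The marker sum was met by 2925 cells, of which 1229 were left out, 1060 of them with a Pecam1 UMI. Pecam1 alone left out 939 cells, and 91.4% of these carried an Ighd UMI, against 86.6% of the members. Their median was 1 Pecam1 UMI, whereas it was 3 in 8094 endothelial cells. A UMI of Cdh5, Flt1 or Egfl7 was found in 7.99% of them and in 3.95% of the members. At the threshold, 16 members had a marker sum of exactly 4 (56.3% with an Ighd UMI), and 18 cells just outside had a sum of 3 (38.9%). Most members, 1610, had a sum of 8 or more (87.5%).

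The share of B cells among all cells kept varied more between libraries than between feeding groups. It was 0.408% in Ad-Lib 1 (95% exact binomial interval 0.253 to 0.623), 8.97% in Ad-Lib 3 (8.19 to 9.81), 1.13% in Ad-Lib 5 (0.821 to 1.52) and 0.457% in Ad-Lib 7 (0.267 to 0.731). In TAN 2, 4, 6 and 8 it was 1.88% (1.49 to 2.33), 8.00% (7.26 to 8.79), 7.18% (6.52 to 7.88) and 7.52% (6.72 to 8.39). The groups overlapped because Ad-Lib 3 had the highest share of all, while TAN 2, the lowest TAN library, still lay above the other Ad-Lib libraries. The intervals cover counting error only.

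The group means were 2.74% ± 4.17 in Ad-Lib and 6.14% ± 2.87 in TAN (SD, n = 4 each). The difference of 3.40 percentage points did not pass a two-sided exact permutation test (p = 0.314; the smallest p this design allows is 0.0286). Without Ad-Lib 3, the difference was 5.48 points, and the exact permutation p of 0.0571 was the smallest that 3 against 4 libraries allow. A quasi-likelihood test of the cell numbers in edgeR gave a log2 change of 1.16, which did not pass either. T cells took 3.53% ± 2.41 of the cells in Ad-Lib and 11.1% ± 6.68 in TAN (SD, n = 4), and the number of B cells per T cell was 0.519 ± 0.505 and 0.613 ± 0.314. That ratio was 0.194, 1.27, 0.394 and 0.224 in Ad-Lib 1, 3, 5 and 7 and 0.429, 0.584, 0.374 and 1.06 in TAN 2, 4, 6 and 8.

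**Figure D1:**
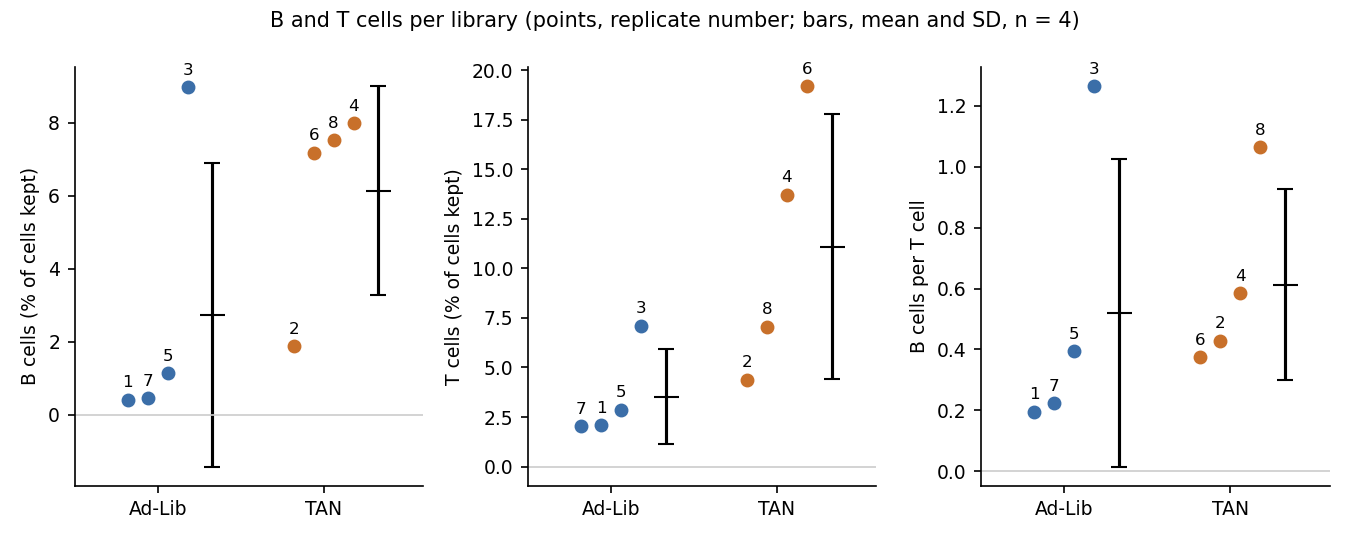
B cells (left) and T cells (middle) as a percentage of the cells kept, and B cells per T cell (right), with 1 point per library labelled by replicate number and bars for the mean and SD (n = 4). Ad-Lib 3 sits at 8.97% B cells, above every TAN library, and the other Ad-Lib libraries lie at 0.408 to 1.13%.

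Ighd was detected with 1 UMI in 244 members, 2 UMIs in 296 and 3 or more in 929, with a highest count of 16. Of the members, 1458 carried both Ighd and Ighm, 194 carried Ighm without Ighd, and 11 Ighd without Ighm. The share of cells with an Ighd UMI depended on depth. It was 61.1% in 54 cells below 2000 UMIs, 87.8% in 468 cells from 2000 to below 3000, 92.6% in 956 cells from 3000 to below 5000, 76.3% in 156 cells from 5000 to below 10000, and 33.9% in 62 cells with 10000 or more. In the last of these bins, 35 of the 62 cells had 5 or more UMIs of Jchain, which joins secreted IgM and IgA.

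Each cell was therefore thinned to 1500 UMIs before the feeding groups were compared (14 cells were too shallow). The thinned share of B cells with an Ighd UMI was 31.7%, 64.9%, 73.1% and 57.1% in Ad-Lib 1, 3, 5 and 7. In TAN 2, 4, 6 and 8 it was 54.8%, 73.7%, 68.4% and 70.2%. Ad-Lib 1 had the lowest share, and the remaining libraries of both groups overlapped.

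The thinned means were 56.7% ± 17.9 in Ad-Lib and 66.8% ± 8.29 in TAN (SD, n = 4 each), a difference of 10.1 points that did not pass a two-sided exact permutation test (p = 0.371). It was 1.78 points without Ad-Lib 1, 2.50 points with the Jchain-rich cells left out, and −2.18 points over the 6 libraries with at least 40 members. Before thinning, the means were 71.1% ± 23.4 and 84.1% ± 9.20.

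The 227 cells without an Ighd UMI were a mixture. Ighm without Ighd was found in 165 of them (72.7%), at a median of 3169 UMIs, and 61.8% of these cells carried Fcer2a, against 74.5% of the Ighd cells. An Ighm UMI was also found in 44.6% of T cells and 23.1% of the other cells, so a single Ighm UMI does not assign a class with certainty. A group of 37 cells (16.3%) had 5 or more Jchain UMIs. In 19 cells (8.37%) switched heavy chain UMIs outnumbered Ighm, and 10 of these 19 cells were in TAN 8. The remaining 6 cells had light chain transcripts only.

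Antibody-secreting cells were the deepest of the members. Including 2 cells with an Ighd UMI, 39 members had 5 or more Jchain UMIs, with a median of 18086 UMIs. Sdc1, the plasma cell surface protein CD138, was detected in 84.6% of them and in 0.546% of the Ighd cells below that Jchain count. Xbp1, the transcription factor of the secretory programme, was detected in 89.7%, and Fcer2a in only 2.56%. Mki67, a gene of dividing cells, was detected in 25.6%. Ighm was the main heavy chain in 23 of the 39 cells and a switched chain in 15, and Igha exceeded Ighm in 8.

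These cells were spread unevenly over the libraries. They numbered 10, 7, 1 and 2 in Ad-Lib 1, 3, 5 and 7, which is 47.6%, 1.59%, 2.33% and 11.8% of the B cells. In TAN 2, 4, 6 and 8 they numbered 9, 3, 0 and 7, or 11.1%, 0.761%, 0% and 2.37%. If a count of 0 is taken to allow up to 3 cells, the upper limit for the 406 members of TAN 6 is 0.739%. This is not the exact binomial interval used for the shares above. The rule left out a further 32 cells with as many Jchain UMIs, 7 of them for a marker sum under 4. Among all cells kept there were 14, 15, 3 and 4 in Ad-Lib 1, 3, 5 and 7 and 15, 4, 1 and 15 in TAN 2, 4, 6 and 8. The members among them held 80.4% of all B cell UMIs in Ad-Lib 1, 36.4% in TAN 2, 44.0% in Ad-Lib 7 and between 0% and 10.9% in the other 5 libraries, so sums over the B cells of those 3 libraries rest on few cells.

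**Figure D2:**
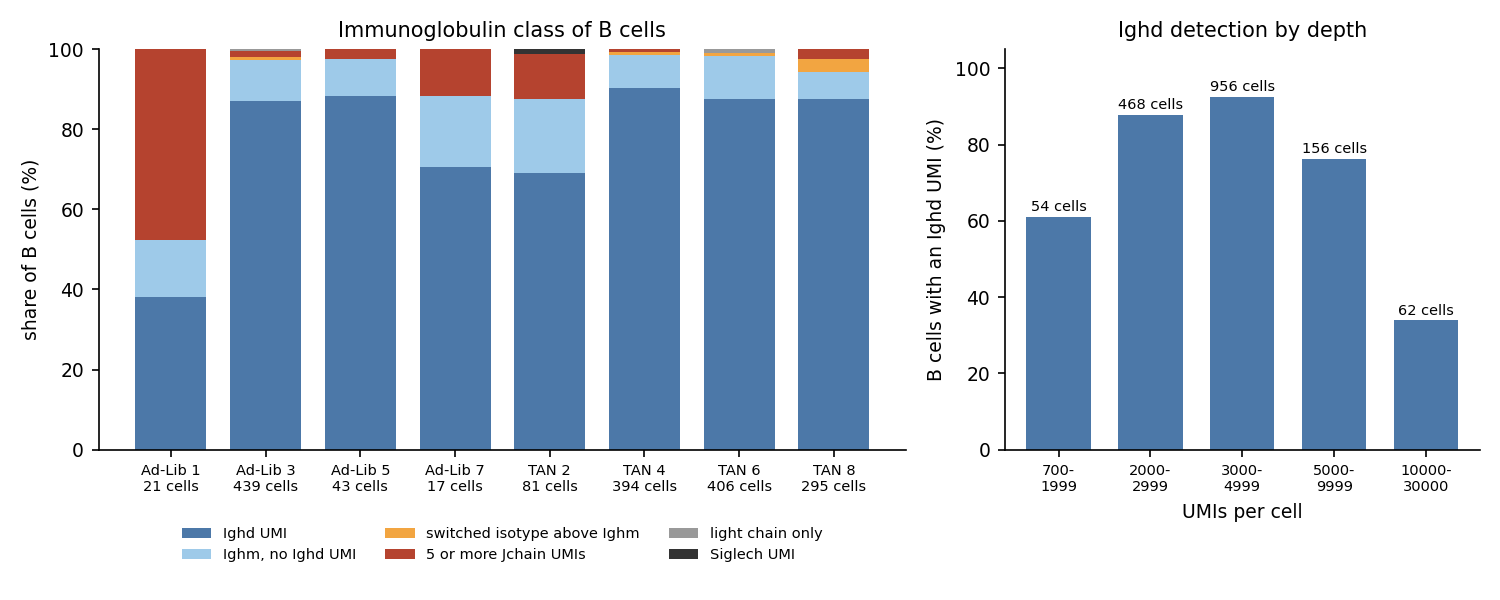
Left, share of the B cells of each library (%) by immunoglobulin class; right, percentage of B cells with an Ighd UMI by UMIs per cell. Cells with 5 or more Jchain UMIs are 47.6% of the 21 B cells of Ad-Lib 1, and detection of Ighd falls from 92.6% from 3000 to below 5000 UMIs to 33.9% at 10000 or more.

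Class-switched transcripts (Ighg1, Ighg2b, Ighg2c, Ighg3, Igha or Ighe) were more frequent in cells without an Ighd UMI in each of the 5 libraries that had at least 10 cells of both classes. After thinning to 1500 UMIs, the share was 12.5% without and 2.77% with Ighd in TAN 2. It was 15.7% and 1.94% in Ad-Lib 3, and 10.6% and 0.330% in TAN 4. In TAN 6 it was 6.51% and 1.49%, and in TAN 8 40.7% and 3.72%. The 2 classes did not overlap across libraries.

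The mean difference was 15.1 points (SD 12.6, n = 5 libraries; 17.2% against 2.05%), and the two-sided exact paired permutation p of 0.0625 was the smallest that 5 libraries allow. It was 9.68 points without TAN 8. All other cells, which include cells with B cell transcripts that the rule left out, gave a background of 0.216% to 0.644% in 4 of these libraries and 3.05% in TAN 8, so the value of the Ighd cells of TAN 8 was close to its background. Before thinning, Igha was detected in 4.52% of the other cells of TAN 8, and any switched heavy chain in 8.85%. Before thinning, the difference was 22.5 points.

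**Figure D3:**
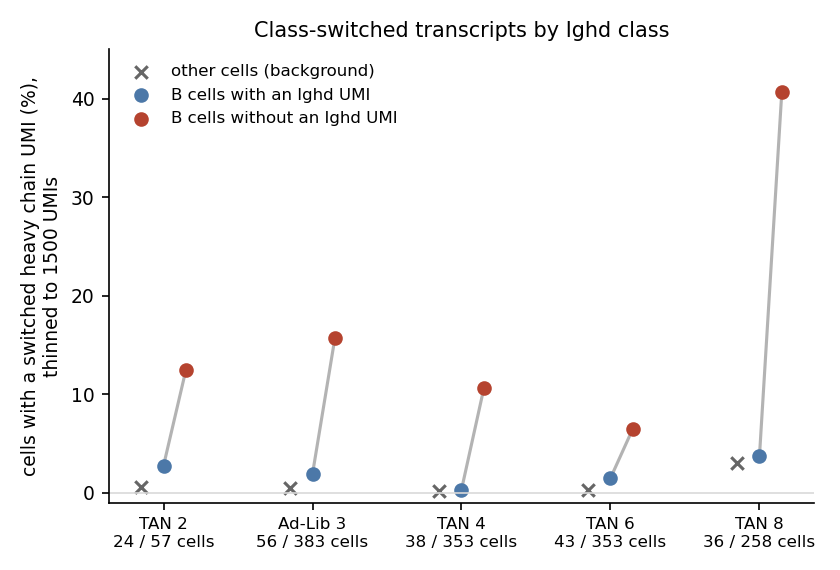
Percentage of cells with a switched heavy chain UMI after thinning to 1500 UMIs in the 5 libraries with at least 10 cells of each class; lines join the classes of a library, crosses show all other cells, and axis labels give the numbers of cells without and with Ighd. Every red point lies above its blue point, with the widest gap, 36.9 points, in TAN 8.

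The light chain comparison depended on how a lambda cell was defined. Lambda UMIs outnumbered kappa UMIs in 160 of 1468 Ighd cells with a light chain (10.9%) and in 22 of 227 cells without Ighd (9.69%). The mean difference within libraries was −1.19 points (SD 4.52, n = 5, lower in 3 of 5), with a two-sided exact paired permutation p of 0.5625. When cells needed at least 2 light chain UMIs with 90% of one kind, the lambda share was 13.1% without and 29.2% with Ighd. This rule takes cells with a mixture of both kinds out of the count. Its shares therefore rest on fewer cells, whose number in each class is not given here. The difference of −16.1 points was lower in 5 of 5 libraries, with a two-sided exact paired permutation p of 0.0625, the smallest possible. Among members with fewer than 5 Jchain UMIs, 1448 had mostly kappa UMIs. Of these, 98.6% also carried a lambda UMI, and their medians were 7 lambda and 26 kappa UMIs. Iglc2, a lambda constant region, was found in 90.7% of all members and in 0.768% of T cells.

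Several germinal centre genes were found in few cells, most of them in Ad-Lib 3 and TAN 8, which belong to different feeding groups. Those libraries held 439 and 295 of the 1696 B cells. These genes were picked out after their values were seen, whereas Bcl6, Stmn1 and Top2a, below, were spread over more libraries. Rgs13, a regulator of chemokine receptor signalling, was detected in 11 B cells of Ad-Lib 3, 5 of TAN 8 and 3 of the remaining libraries together. Mef2b, a transcription factor of germinal centre B cells, was detected in 18, 11 and 16 cells, and Mki67 in 11, 12 and 6. Gcsam, a signalling adaptor of germinal centre cells, was detected in 3 and 4 cells and in none of the remaining libraries, with only 13 UMIs in all members.

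The same genes were also counted in the other cells, some of which may express them. Mef2b was found in 2.65% of the B cells and 0.245% of the other cells, and Rgs13 in 1.12% and 0.185%. Mki67 was found in 1.71% and 1.32%. Gcsam (0.413% and 0.578%), Mybl1, a transcription factor of dividing germinal centre cells (0.884% and 1.19%), and S1pr2, a receptor that holds cells in the follicle (1.06% and 10.5%), were no more frequent in B cells than in the other cells. Of the 18 B cells with S1pr2, 8 were in Ad-Lib 3 and 7 in TAN 8. Bcl6, the master regulator of the germinal centre, was detected in 211 B cells (12.4%), of which 49 were in Ad-Lib 3, 50 in TAN 8 and 60 in TAN 6, and in 11.3% of the other cells. Stmn1, a microtubule regulator of dividing cells, was detected in 127 B cells (7.49%), of which 30 were in Ad-Lib 3, 24 in TAN 8, 33 in TAN 6 and 28 in TAN 4, and in 7.03% of the other cells. Top2a, also a gene of dividing cells, was detected in 38 B cells (2.24%) and in 1.45% of the other cells. Of the 38 cells, 12 were in Ad-Lib 3, 12 in TAN 8 and 10 in TAN 6.

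**Figure D4:**
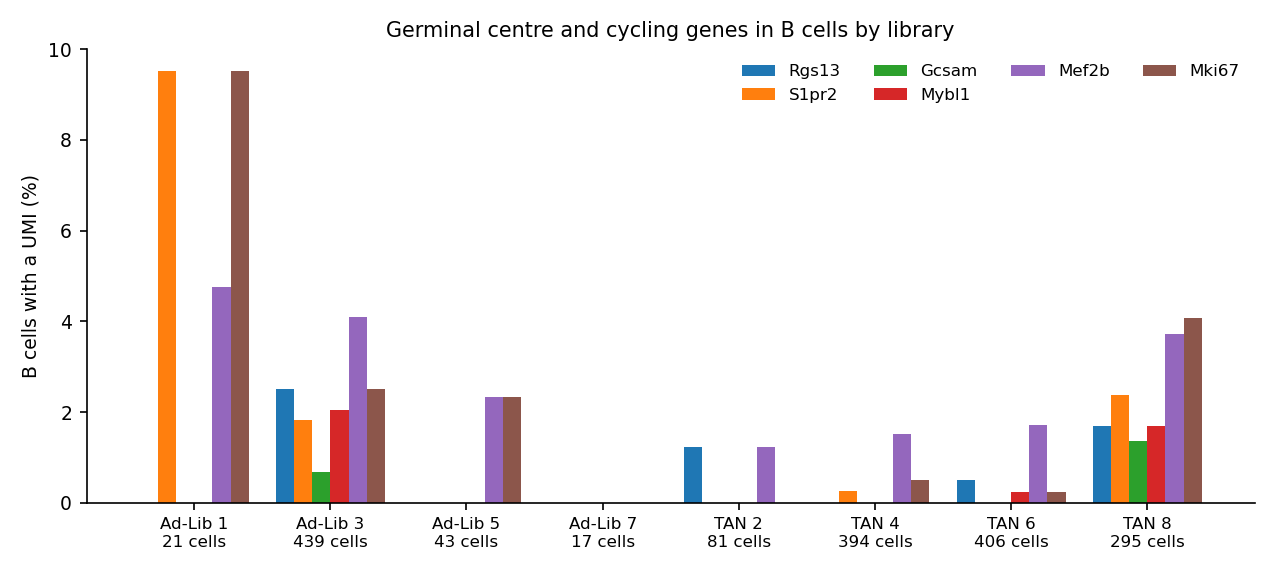
Percentage of the B cells of each library with a UMI of 5 germinal centre genes and of Mki67. Gcsam is present only in Ad-Lib 3 (3 cells) and TAN 8 (4 cells), and the tall bars of Ad-Lib 1 stand for 1 or 2 of its 21 cells.

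The surface markers and T-bet that define innate-like and age-associated B cells were sparse. Over all members, Cd5, a B1a cell marker, had 8 UMIs, Spn (CD43) 30, Itgax (CD11c) 2 and Tbx21 (T-bet) 19. Less specific genes of the same lists were abundant, among them Vim, an intermediate filament, with 1537 UMIs and Plac8 with 1299 in the B1 list, and Apoe, a lipid carrier, with 1635 and Tnfrsf13b, the survival receptor TACI, with 1182 in the age-associated list. These examples were chosen after their values were seen. Bhlhe41, a B1 cell transcription factor, was detected in 25 of 227 cells without and 20 of 1469 cells with an Ighd UMI, and in 0.209% of T cells and 7.85% of the other cells. Of the 15 genes of the B1 list, 5 passed the expression filter of the test described next. All 5 were above 0 in cells without Ighd (median log2 change 0.68), and 0 were called by edgeR (4 at an unadjusted p under 0.05). The 3 fibroblast genes tested were also all above 0 (median 1.40), with 0 called by edgeR (2 at an unadjusted p under 0.05). The part of fibroblast RNA in the B1 values was not tested.

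To compare both classes across genes, the UMIs of each class were added up within a library, and edgeR's quasi-likelihood test was run with the library as a block. Calls needed a 1.5-fold difference and a p under 0.05 after Benjamini-Hochberg adjustment. Ighd itself was left out. Of 3158 genes tested in the same 5 libraries (TAN 2, 4, 6, 8 and Ad-Lib 3), 77 were called (2.44% of the genes tested), 58 higher (1.84%) and 19 lower (0.602%) in cells without an Ighd UMI. No V, D or J segment was among them. The direction was the same in all 5 libraries for 22.5% of the genes tested. CPM values are given without further scaling, and immunoglobulin transcripts took 1.14% to 40.7% of the UMIs in the sums without Ighd against 1.14% to 1.53% with it, which lowers the CPM of all other genes in the former.

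The Jchain-rich cells held 71.4% of the UMIs without Ighd in TAN 2, 25.7% in Ad-Lib 3, 34.8% in TAN 4, 0% in TAN 6 and 36.9% in TAN 8. With these cells and cells with a Siglech UMI left out, a setting chosen after the data were seen, 2506 genes were tested and 9 of the 77 calls remained, 4 higher (0.16%) and 5 lower (0.2%). No others were added. Of the 60 earlier calls still tested, 58 kept their sign, in cells that were part of the fit that chose them.

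Ighg2b (chr12:113302965-113307933, GRCm38), the IgG2b constant region, had the smallest p. Its level was 37.9, 121, 120, 161 and 283 CPM without Ighd in TAN 2, Ad-Lib 3, TAN 4, TAN 6 and TAN 8, and 8.76, 6.86, 0.856, 2.28 and 29.0 CPM with Ighd. The classes did not overlap. The log2 change was 4.40 ± 0.36 (SE; edgeR adjusted p = 1.55e-05), and 5.10 ± 0.31 without the Jchain-rich cells (edgeR adjusted p = 2.17e-10).

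Genes of the plasma cell list were higher in cells without an Ighd UMI. Of its 13 genes 6 were tested and 5 called higher (Txndc5, Xbp1, Slamf7, Mzb1 and Trp53inp1), with a median log2 change over the 6 of 2.22 against −0.02 over all genes tested. Without the Jchain-rich cells, 3 were tested and 0 called (edgeR; median 0.597). Txndc5, a protein disulphide isomerase of the endoplasmic reticulum, stood at 741, 313, 469, 70.7 and 588 CPM without and 78.8, 50.1, 63.4, 57.1 and 94.3 CPM with Ighd, in the same order of libraries (log2 change 2.81 ± 0.33, edgeR adjusted p = 0.000483). TAN 6, which had no Jchain-rich member, gave the smallest gap.

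Trp53inp1, a target of p53, stood at 194, 95.7, 142, 70.7 and 179 CPM without and 17.5, 24.0, 37.7, 30.5 and 33.6 CPM with Ighd (log2 change 2.41 ± 0.28). Xbp1 had a log2 change of 2.88 ± 0.47 (edgeR adjusted p = 0.00531) and Mzb1, a chaperone of IgM assembly, of 2.03 ± 0.37 (0.01). Slamf7, a surface receptor of plasma cells, was 38.6 to 84.5 CPM without and 20.5 to 30.7 CPM with Ighd (log2 change 1.55). Irf4, a transcription factor of plasma cell differentiation, gave 0.375 ± 0.237 and was not called.

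The other named higher genes had the following values. Ssr4, a subunit of the translocon-associated complex, was 251 to 856 CPM without and 148 to 168 CPM with Ighd (log2 change 2.14 ± 0.28, edgeR adjusted p = 0.00183). Sec11c, a subunit of the signal peptidase, was 212 to 796 CPM against 158 to 189 CPM (log2 change 1.83), and Sdf2l1, a chaperone co-factor, 32.2 to 253 CPM against 30.7 to 41.1 CPM (2.26). Rexo2, an oligoribonuclease, gave a log2 change of 2.12 and Mrpl57, a mitochondrial ribosomal protein, of 1.12. The 5 were named as calls with the same direction in every library, so that direction is not a further result. Without the Jchain-rich cells Sdf2l1 no longer passed the filter on low counts, and the others were not called, with log2 changes of 0.33 for Ssr4, 0.32 for Sec11c, 0.24 for Rexo2 and 0.29 for Mrpl57.

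Odc1, the rate-limiting enzyme of polyamine synthesis, was 120 to 409 CPM without and 31.7 to 82.3 CPM with Ighd (log2 change 1.78 ± 0.31) and kept its call without the Jchain-rich cells (1.04, edgeR adjusted p = 0.0458). Cst3, a secreted protease inhibitor, gave 0.95, and Clic4, a chloride channel protein, 1.16. In cells with 2000 to 5000 UMIs only, Cst3 (0.91, edgeR adjusted p = 9.77e-05) and Hmgb2, a chromatin protein of dividing cells (0.79, edgeR adjusted p = 0.00648), were the 2 genes called of 1750 tested.

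Promoter sequences are shown because Xbp1, whose protein binds elements of this kind, was itself among the called genes. RefSeq promoters (GRCm38, the 250 bases before each gene's start site) were available for 47 of the 58 higher and 14 of the 19 lower genes. They were searched on both strands for the endoplasmic reticulum stress element (CCAAT, 9 bases of any kind, CCACG) and for TGACGTGG, a core motif bound by XBP1 and related factors. Their ends, CCACG and CGTGG, are reverse complements, and no promoter shown here held both motifs. The first was found in 2 of the 47 higher genes, 0 of the 14 lower genes, 0.315% of 2539 tested genes with a promoter and 0.13% of all 27025 promoters. The second was also found in 2 of the 47 and 0 of the 14, in 1.10% of the tested genes and 0.603% of all promoters. The windows below run in the direction of the gene, with the motif or its reverse complement in capitals.
Hsp90b1, chr10:86705618-86705676, minus strand: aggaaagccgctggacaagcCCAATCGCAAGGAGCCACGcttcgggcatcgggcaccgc
Hsp90b1, chr10:86705513-86705571, minus strand: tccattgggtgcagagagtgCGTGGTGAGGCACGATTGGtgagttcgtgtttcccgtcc
Dnajc3, chr14:118937807-118937865, plus strand: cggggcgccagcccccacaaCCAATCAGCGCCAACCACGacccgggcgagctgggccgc
Ube2j1, chr4:33031292-33031339, plus strand: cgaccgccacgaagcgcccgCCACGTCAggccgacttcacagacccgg
Txndc5, chr13:38528025-38528072, minus strand: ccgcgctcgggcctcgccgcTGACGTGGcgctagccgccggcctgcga

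Hsp90b1 and Dnajc3, chaperones of the endoplasmic reticulum, had log2 changes of 1.59 and 1.49, and Ube2j1, a ubiquitin-conjugating enzyme of protein degradation there, of 1.21. They are named for their motif and were chosen after their values were seen. The Txndc5 window lies before its RefSeq start site but within the gene's span in the GENCODE annotation (chr13:38500079-38528824). A match of letters is a description of the sequence only.

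Some genes of naive follicular B cells were lower in cells without an Ighd UMI. Of the 15 genes of this list, which holds Ighd itself, 14 were tested, all 14 had a log2 change below 0 and 3 were called lower, among them Fcmr and Satb1, with a median of −0.64 against −0.02 over all genes. Without the Jchain-rich cells 2 of 14 were called, 2 were above 0 (Cxcr5 at 0.17 and Klf2 at 0.07) and the median was −0.38. Fcmr (chr1:130865669-130880791), the Fc receptor for IgM, stood at 80.0, 287, 289, 495 and 179 CPM without and 447, 510, 616, 653 and 650 CPM with Ighd (−0.94 ± 0.17, edgeR adjusted p = 0.01). Fcer2a gave −0.96 ± 0.25 and was not called (edgeR adjusted p = 0.0543).

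Zfp318, which is needed for the splicing that makes Ighd, was 21.1 to 141 CPM without and 140 to 205 CPM with Ighd (log2 change −1.28 ± 0.25). Slfn2, a gene of lymphocyte quiescence, was 16.8 to 44.2 CPM against 89.9 to 215 CPM (−1.38 ± 0.25), and Egr3, an early response gene of antigen receptor signalling, 13.0 to 51.4 CPM against 65.7 to 128 CPM (−1.45 ± 0.30). These 3 genes and Fcmr were among the 5 lower genes that remained called without the Jchain-rich cells, with log2 changes of −1.02, −1.10, −1.47 and −0.64 in that order.

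Cd22, an inhibitory receptor of B cells, gave a log2 change of −0.80, Satb1, a chromatin organiser, −0.82, Hhex, a transcription factor, −1.14 and Zbtb18, a transcriptional repressor, −1.56. Cnn3, an actin-binding protein, gave −1.18, Plaur, the urokinase receptor, −1.38 and H2-DMb1, a chain of the peptide loader of MHC class II, −0.98. The 7 were named as calls with the same direction in every library, so that direction is not a further result. None of them was called without the Jchain-rich cells. Zbtb18 then no longer passed the filter on low counts, and the log2 changes of the other 6 were −0.51 for Cd22, −0.67 for Satb1, −0.86 for Hhex, −0.89 for Cnn3, −1.06 for Plaur and −0.69 for H2-DMb1.

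**Figure D5:**
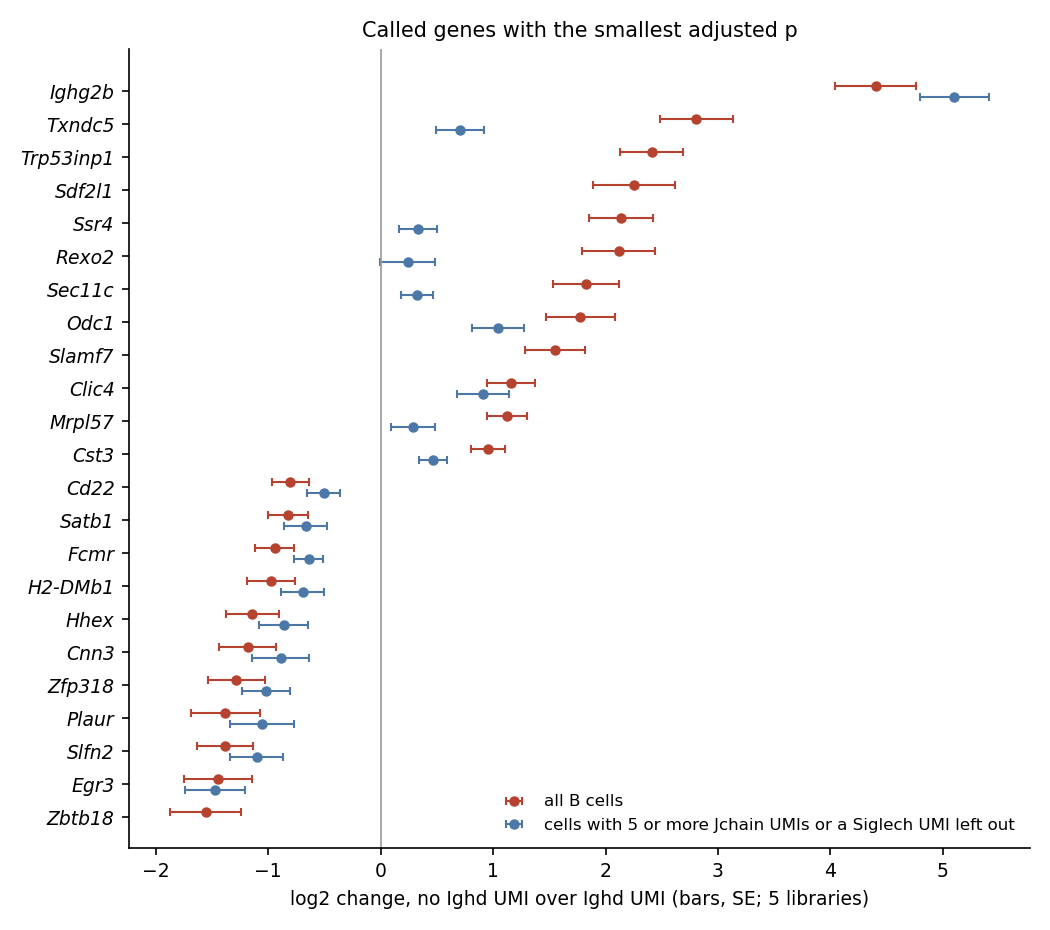
Log2 change (points) with SE (bars) of the 12 higher and 11 of the 12 lower named genes between B cells without and with an Ighd UMI over 5 libraries, for all B cells (red) and with Jchain-rich or Siglech cells left out (blue; genes without a blue point no longer passed the filter on low counts). Without these cells Txndc5 stands at 0.70 in place of 2.81, while Ighg2b moves from 4.40 to 5.10.

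The remaining lists were mixed. Of 12 genes of MHC class II presentation 1 was called lower, with 10 of 12 below 0 and a median of −0.41. Without the Jchain-rich cells 0 of 11 were called by edgeR, and the median was −0.14. Of 13 B cell identity genes other than Cd79a, Cd79b and Ms4a1, which chose the members, 1 was called lower (Cd22; median −0.37, and −0.13 without the Jchain-rich cells). Of 16 genes of B cell receptor signalling 0 were called by edgeR (6 at an unadjusted p under 0.05; median −0.25, and −0.03 without those cells). Among 18 early activation genes tested, Fosb and Jun were called higher and Egr3 and Myc lower. Without the Jchain-rich cells only Egr3 kept its call, and the log2 changes of Fosb, Jun and Myc were 0.65, 0.35 and −1.10 (edgeR adjusted p = 0.222, 0.439 and 0.152). In the memory B cell list, Zbtb20, a transcriptional repressor found in plasma cells, was higher (1.04 ± 0.23, and 1.15 without the Jchain-rich cells) and Hhex lower, a call that was lost without those cells. In the immunoglobulin constant list 2 of 6 tested genes were called, Ighg2b and Igkc (3.88), with a median of 1.94 that was 0.01 without the Jchain-rich cells. Of 12 adipocyte genes 4 were tested, all 4 were below 0 (median −1.43) and Cfd, the protease adipsin, was called lower (−1.80; −1.51 and not called without the Jchain-rich cells). The part of adipocyte RNA in the other results was not tested.

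The number of calls depended on the libraries entered. Without TAN 4 only 1 gene was called and without TAN 8 only 3, whereas 208 were called without TAN 6, 97 without TAN 2 and 70 without Ad-Lib 3. All 77 genes kept their sign without TAN 4, as did the 68 still tested without TAN 8. These fits share most of their libraries with the fit that chose the genes, so the signs are no independent check. With at most 10000 UMIs per cell and further lineage genes at 0, edgeR called 0 of 2026 genes (203 at an unadjusted p under 0.05).

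To ask whether B cells differed between TAN and Ad-Lib mice, their counts were summed per library over all 8 libraries. Of 6442 genes, 0 were called by edgeR (0.0%; 126 at an unadjusted p under 0.05), and DESeq2 also called 0 (107 at an unadjusted p under 0.05). The libraries of both groups did not overlap for 128 genes (1.99%).

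The 10 genes with the smallest p all had an edgeR adjusted p of 1.00 after rounding. Lsp1, a leukocyte actin-binding protein, stood at 70.0, 213, 195 and 192 CPM in Ad-Lib 1, 3, 5 and 7 and at 243, 266, 314 and 282 CPM in TAN 2, 4, 6 and 8 (log2 change 0.56 ± 0.19). Zcchc17, a nucleolar zinc finger protein, stood at 19.4, 42.2, 32.5 and 21.3 CPM against 45.1, 62.2, 62.0 and 71.1 CPM (0.67 ± 0.22), and Akt2, a kinase of insulin signalling, at 11.7, 11.0, 21.7 and 21.3 CPM against 25.8, 25.2, 29.3 and 32.7 CPM (0.99 ± 0.31). In these 3 genes the groups did not overlap. The others overlapped, with log2 changes of 1.47 for Mid1 and 0.67 for Tia1, and of −0.88 for A530032D15Rik, −1.19 for Rrbp1, −1.11 for Cdca7, −0.91 for Tars and −0.65 for Clcn3.

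All 13 plasma cell genes had a log2 change below 0 in TAN, with a median of −1.70 against 0.00 over all genes and 0 called by edgeR (3 at an unadjusted p under 0.05). Xbp1 stood at 894, 46.3, 168 and 341 CPM in Ad-Lib 1, 3, 5 and 7 and 251, 70.3, 42.2 and 132 CPM in TAN 2, 4, 6 and 8 (log2 change −2.16 ± 0.91). It was highest in Ad-Lib 1 and 7, where the Jchain-rich cells held most or much of the UMIs. Without these cells 6 plasma cell genes were tested, with a median of −0.37. Of 13 B cell identity genes that did not choose the members the median was 0.16, of 15 naive follicular genes 0.09, of 12 MHC class II genes 0.30, of 18 early activation genes −0.39 and of 5 tested circadian clock genes 0.05, with 0 called by edgeR in each.

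In Ighd cells alone, 7 libraries had enough cells, and 2 of 7371 genes tested were called, both higher in TAN. Both are adipocyte genes. Fabp4, a fatty acid carrier, had a log2 change of 1.27 (edgeR adjusted p = 0.0101) and Thrsp, a lipogenic protein, 2.24 (edgeR adjusted p = 0.0476). In these cells Fabp4 stood at 244, 395 and 123 CPM in Ad-Lib 3, 5 and 7. In TAN 2, 4, 6 and 8 it stood at 1139, 424, 539 and 587 CPM. For Thrsp the values were 6.86, 34.1 and 24.5 CPM against 153, 46.2, 47.2 and 26.2 CPM, and the groups overlapped. Over all B cells, Fabp4 stood at 11.7, 232, 791 and 330 CPM in Ad-Lib 1, 3, 5 and 7 and 595, 386, 537 and 490.5 CPM in TAN 2, 4, 6 and 8, with a log2 change of 0.61 ± 0.54 that was not called. Ad-Lib 5 was the highest in that wider set of cells. Over all B cells, Thrsp stood at 0, 6.36, 48.7 and 10.6 CPM in Ad-Lib 1, 3, 5 and 7 and 79.4, 40.7, 42.9 and 23.9 CPM in TAN 2, 4, 6 and 8. In T cells Thrsp stood at 0, 4.09, 21.9 and 4.21 CPM in Ad-Lib and 41.6, 31.9, 15.6 and 26.6 CPM in TAN, and in the other cells of these libraries at 45.6 to 98.8 CPM in Ad-Lib and 111 to 278 CPM in TAN. The B cell and T cell values of Thrsp thus lay below those of the other cells in every library, and the part of free RNA from other cells was not tested.

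The difference between the Ighd classes was also compared between Ad-Lib 3, the only Ad-Lib library with enough cells of both classes, and the 4 TAN libraries. With 1 library on one side, feeding and that library cannot be told apart, and its spread was assumed to be that of the others. Of 3158 genes, 0 were called by edgeR (0.0%; 100 at an unadjusted p under 0.05) and 0 by DESeq2 (11 at an unadjusted p under 0.05). Without TAN 6, 29 genes were called, and without TAN 2, 1 gene. The smallest p belonged to Hist1h1b, a linker histone of dividing cells, with a difference between TAN and Ad-Lib 3 of −2.45 ± 0.46 on the log2 scale (edgeR adjusted p = 0.262). The next were Cebpb (2.11), Smagp (−2.01), Ly6a (2.14), Hist1h2ap (−1.69), Nptn (2.26), Sypl (−1.36), Apoe (−1.84), Hmgb2 (−1.11) and March5 (2.19), on the log2 scale.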

How the data were processed

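The authors deposited UMI counts per gene and barcode, not normalized, made with Cell Ranger on mm10 (GRCm38) from exonic reads per the study's methods. The labels give version 3.0.2 and the file headers 6.0.1. Cells with 700 to 30000 UMIs, 200 to 8000 genes and at most 10% mitochondrial UMIs were kept, the limits of the study. No doublet caller was run; the genes required to be at 0 were the only exclusion. Members and gene lists were chosen with earlier results of these data known.

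Groups came from the labels. Shares were compared over libraries by exact permutation tests. Thinning to 1500 UMIs was computed exactly. Counts were summed per library (at least 10 cells) and tested with edgeR 4.0.16 (TMM, filterByExpr, quasi-likelihood, R 4.3.3), adjusted over all genes tested, with DESeq2 1.42.0 as an alternative. Named genes are the 12 higher and 12 lower calls with the smallest adjusted p and the same direction in every library, or the 10 smallest p where fewer than 10 were called, and list members. The tests were tested on simulated data. Coordinates came from GENCODE M21, which held 32235 of 32285 gene identifiers. Alternatives changed the gate, filters, scaling, depth, tool and libraries. Results for some genes are not reported here.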

Additional observations from a re-analysis of the deposited data

Results flagged for a closer look

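Of 28 groups of 4 libraries screened, 6 held a library far from the other 3, where chance flags about 1 in 20 groups. The share of B cells was 8.97% in Ad-Lib 3, far above the other Ad-Lib libraries, and 1.88% in TAN 2, far below the other TAN libraries. The median depth of B cells was 14789 UMIs in Ad-Lib 1. The class-switched share differed by 36.9 points between cells without and with an Ighd UMI in TAN 8. Cdca7 stood at 3.89 CPM and Lsp1 at 70.0 CPM in Ad-Lib 1, both below the other Ad-Lib libraries. In Ad-Lib 1 the 10 Jchain-rich cells held 80.4% of the B cell UMIs, and in TAN 8 3.05% of all other cells also carried a switched heavy chain UMI after thinning. The B cell share difference was 5.48 points without Ad-Lib 3 and 4.82 without TAN 2, in place of 3.40. Without Ad-Lib 1 the Ighd share difference was 1.78 points in place of 10.1. Without TAN 8 the switched-transcript difference was 9.68 points in place of 15.1. The causes of the flagged values were not tested.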

How the results depend on the processing

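The B cell share kept its direction in every alternative (2.62 to 5.48 points with 1 library left out). The Ighd share difference turned to −0.188 points with stricter exclusion (more lineage genes at 0 together with at most 10000 UMIs; 2 Ad-Lib libraries, exact permutation p = 0.933, smallest possible 0.133) and −2.18 over libraries with at least 40 members, and ranged from 1.78 to 15.6 with 1 library left out. The switched-transcript difference was 17.9 points with Pecam1 allowed (6 libraries, exact permutation p = 0.03125, the smallest possible) and 9.68 to 17.7 with 1 library left out. The lambda difference was −16.1 points with the 90% rule and −2.75 to −0.0778 with 1 library left out. Calls between the Ighd classes numbered 353 without a filter on low counts, 0 with stricter exclusion, 131 at a mitochondrial limit of 20%, 9 without Jchain-rich cells, 190 with Pecam1 allowed, 2 in cells with 2000 to 5000 UMIs and 1 to 208 with 1 library left out. DESeq2 called 78, of which 67 were shared with the 77. Calls between TAN and Ad-Lib numbered 11, all lower, without the filter (Ighg3 and 10 V segments), 1 with stricter exclusion (Apoe, lower), 2 in Ighd cells only, and 0 with any 1 library left out (edgeR; 46 to 471 at an unadjusted p under 0.05). Calls for the difference of the Ighd contrast between TAN and Ad-Lib 3 numbered 16 without the filter, 3 with stricter exclusion and 0 to 29 with 1 library left out. In that comparison Apoe turned to 0.27 with Pecam1 allowed. The causes were not tested. No paired analysis was possible because the groups share no replicate number. Leaving out Jchain-rich cells, Ighd cells only, 40 members and Pecam1 allowed were chosen after seeing the data. The comparisons of feeding rest on 17 to 43 B cells in 3 of the Ad-Lib libraries.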
